A study of Mus musculus with 5 samples.

Results

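The sites bound by SOX4 and by RELA in untreated mouse fibroblast-like synoviocytes (FLS) were compared, all of them before any TNF was given. Every peak on chromosomes 1 to 19 and X of the 2 untreated lists was used, 192 SOX4 peaks and 402 RELA peaks, which are 594 of the 3798 peaks in the 4 lists of the series. A SOX4 and a RELA peak were called shared when their summits, the bases of highest enrichment, lay at most 50 bp apart. This gave 152 shared sites, 40 SOX4 only sites and 250 RELA only sites, 442 sites in all. The 152 shared SOX4 summits had 152 different RELA partners, so that no peak was counted in 2 pairs.

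The series holds ChIP-seq of wildtype C57BL/6 FLS with an antibody to SOX4 or to RELA (the p65 subunit of NF-κB), either untreated or given 10 ng/mL TNF for 16 h, and 1 input library of untreated FLS. DNA of 3 cultures was pooled for each antibody and condition, so that each list came from 1 library. There were no replicates, no test between the antibodies was possible, and the intervals given for shares (Wilson, 95%) and medians (order statistics, 95%) cover counting error only. Peak lists hold no expression values, so the FLS label was not checked against marker genes, and read depth and input coverage were not analysed here.

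SOX4 is a SoxC transcription factor with an HMG box that binds the minor groove of DNA and bends it, and together with SOX11 it acts in mesenchymal progenitors. RELA carries the transactivation domain of the main NF-κB dimer, which inhibitors of the IκB family hold in the cytoplasm of resting cells until signals such as TNF release it. FLS line the joint, secrete lubricin and hyaluronan into the synovial fluid, and become inflammatory effectors in arthritis.

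The sequences under the summits are shown first, because a few short words recurred there in windows of 100 bp centred on the summits. All are read from the mouse genome (GRCm38, which is mm10), on the strand that spells the word, with the word in capitals. The words were chosen after the windows had been seen. The first word, ATTCCATTC, stands in runs of the 5-base unit ATTCC:

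chr11:25100158-25100187, plus strand, shared: attccattccATTCCATTCcgttccattcc
chr8:90445878-90445907, minus strand, shared: cattccattccATTCCATTCcattccattc
chr13:27206099-27206128, minus strand, RELA only: ccttcccttccATTCCATTCcattccattc

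The word TGAACTGAA stands in runs of another 5-base unit. The RELA only site of highest enrichment that held it is shown with the next, which tied with a site on chromosome 6 at 99966272:

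chr12:42535643-42535672, minus strand, RELA only: ctgaactaaacTGAACTGAActgaactgaa
chr12:42228428-42228457, plus strand, RELA only: tgaactcaacTGAACTGAActgaactgaac

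The last group comprises 3 words that overlap each other, CATGATCAG, CAGTGCATG and CACTGATCA, and is shown because it was found in all classes and outside repeats:

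chr16:37735124-37735153, plus strand, shared, upstream of Fstl1: cattgctcatCAGTGCATGatcagccaggt
chr5:34619239-34619268, plus strand, shared, intron of Add1: ctgtgatgttCAGTGCATGatcagacatga
chr4:67972469-67972498, minus strand, shared, outside genes: ccattgctcatCAGTGCATGaccaggcagg
chr8:82343973-82344002, plus strand, SOX4 only, coding sequence of Il15: ataaaagacaCACTGATCAcgtgactgtgg
chr6:72570583-72570612, plus strand, SOX4 only, intron of Elmod3: attacctgatCAGTGCATGgtcacacctag
chr19:55892236-55892265, plus strand, RELA only, intron of Tcf7l2: gtgagcagtgCATGATCAGgtcttcccaag
chr1:55626113-55626142, minus strand, RELA only, intron of Plcl1: tactgcacatgCACTGATCActtgaatgct

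The shared sites made up 79.2% of the SOX4 peaks (72.9% to 84.3%) and 37.8% of the RELA peaks (33.2% to 42.6%). Paired summits lay a median of 4 bp apart (3 to 5 bp). They coincided to the base at 29 sites, 89 pairs lay within 5 bp and 123 within 10 bp. The RELA summit had the higher coordinate at 63 sites and the lower one at 60. The limit of 50 bp cut through an empty stretch of distances. The widest pair, on chromosome 11 at 88551063 in the SOX4 list, was 30 bp apart. The nearest summits outside the limit were RELA only summits 224 bp from a SOX4 summit, at chr12:69361441 in the small RNA gene Rn7s2, and 432 bp away, at chr15:44780235. The 50 bases around the Rn7s2 summit occur at 3 places in the reference, so that its position is uncertain. The SOX4 only summit nearest to any RELA summit was 39756 bp from it, and the 50 bases around each of these summits occur at 2 places.

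**Figure D1:**
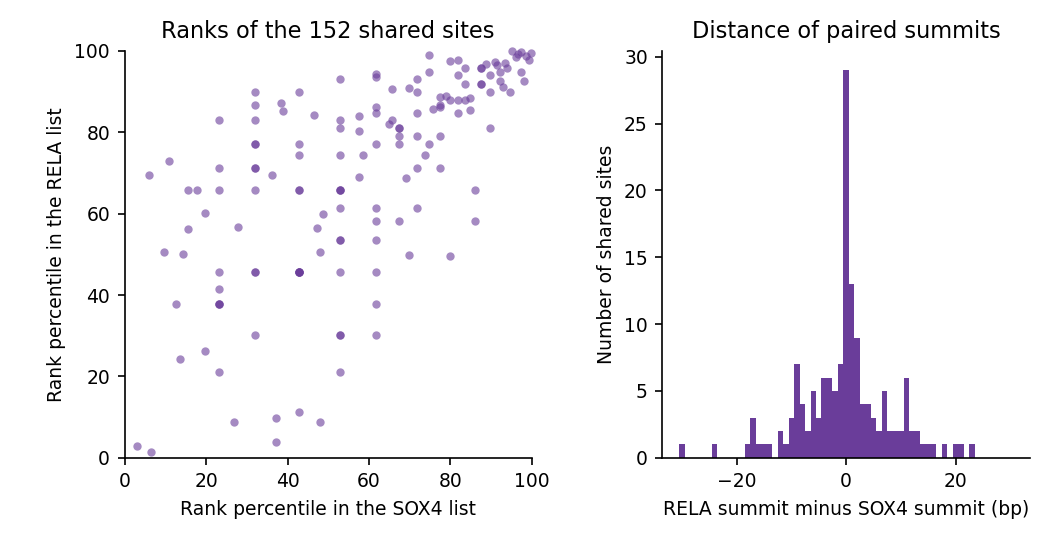
The left panel plots the rank percentile of each of the 152 shared sites in the SOX4 list (x axis) and in the RELA list (y axis), with 100 the highest enrichment and 1 point per site. The right panel counts the sites by the distance of the RELA summit from the SOX4 summit in bp, which was 0 at 29 sites and at most 30 bp at all.

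Enrichment differed between the classes within each list. The deposited fold enrichment is relative to a background set for each library when its peaks were called against input. It was therefore compared by rank within a list, as a percentile from 0 for the lowest to 100 for the highest. In the SOX4 list the shared peaks had a median fold enrichment of 8.98, with a range of 4.17 to 24.8, and the SOX4 only peaks one of 6.02, with a range of 1.58 to 19.02. Their median rank percentiles were 61.7 (52.9 to 67.4) and 14.6 (8.59 to 23.2). In the RELA list the median fold enrichment was 11.6 for shared peaks, from 4.94 to 26.5, and 8.15 for RELA only peaks, from 3.39 to 21.8. Here the median rank percentiles were 77.0 (69.4 to 82.0) and 37.8 (30.1 to 37.8). The ranges overlapped in both lists. The intervals of the medians did not, but they say nothing of another library of the same cells. Many peaks had tied values, since the 192 SOX4 peaks took 75 different values of fold enrichment and the 402 RELA peaks took 118.

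**Figure D2:**
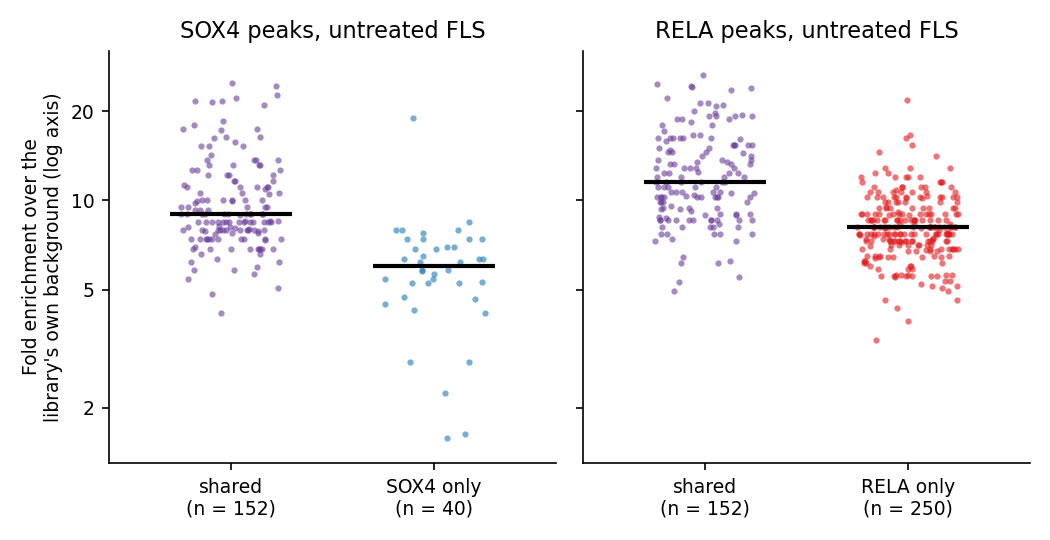
Fold enrichment over the background set for each library in peak calling, on a log axis, is plotted for every peak of the SOX4 list (left) and the RELA list (right), split into shared peaks and peaks of that factor only, with black bars at the medians. The medians are 8.98 and 6.02 for SOX4, and 11.6 and 8.15 for RELA.

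The share of peaks with a partner was higher among peaks of higher enrichment in both lists. Of the SOX4 peaks in the lowest quartile of fold enrichment 22 of 50 were shared (44.0%, 31.2% to 57.7%), and in the next one 34 of 44 (77.3%). In the upper quartiles 50 of 51 and 46 of 47 were shared. For RELA the share went from 10 of 101 (9.90%, 5.47% to 17.3%) through 23 of 100 and 41 of 103 to 78 of 98 (79.6%, 70.6% to 86.4%) in the highest quartile. Of the 10 highest peaks 9 were shared in each list, and the exceptions were Prg4 for SOX4 and Sox4 for RELA. A weak peak of one list may have a partner just under the threshold of the other, which the lists cannot show.

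**Figure D3:**
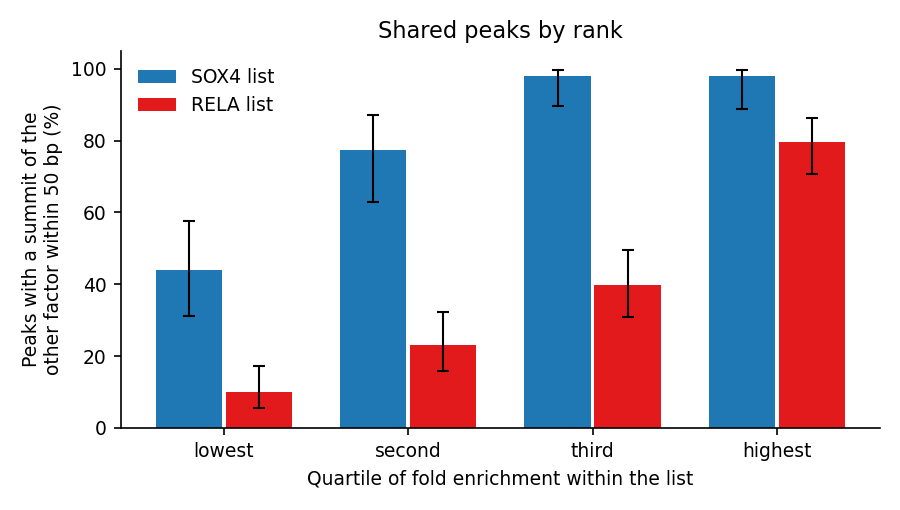
Bars give the share of peaks (%, y axis) with a summit of the other factor within 50 bp, by quartile of fold enrichment within the SOX4 or the RELA list (x axis), with Wilson 95% intervals as error bars. The SOX4 share goes from 44.0% in the lowest to 97.9% in the highest quartile, and the RELA share from 9.90% to 79.6%.

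The ranks of the 152 shared sites in the lists went together, with a Spearman rho of 0.72 and a Pearson r of 0.75 for log2 fold enrichment. These describe the sites only, which share a mappability, a base composition and 1 input library between the lists. A rank in the upper part of both lists was held by 87 sites, one in the lower part of both by 24, one in the upper part for RELA alone by 32 and one for SOX4 alone by 9, with the 50th percentile as the boundary. Peaks were barely wider than the reads of 50 bases. The median width at shared sites was 57 bp for SOX4 and 65.5 bp for RELA, against 52 bp for SOX4 only and 54 bp for RELA only peaks, and the narrowest peak was 50 bp. The RELA peak was the wider one at 123 of the 152 shared sites, and 11 pairs were equal. Only 12 of the 594 peaks reached a width of 100 bp.

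The 8 shared sites with the highest mean rank lay mostly outside promoters. The highest was in an intron of Asb3, which overlaps the orphan receptor gene Gpr75 there, at chr11:30888277-30888345, with a fold enrichment of 24.8 for SOX4 and 24.4 for RELA. The next lay upstream of the olfactory receptor gene Olfr1036, at chr2:86063937-86064006, with 22.7 and 23.5. A site outside any gene or its 50 kb upstream, at chr11:25100120-25100209, had 21.7 and 24.8 and is the first ATTCC repeat shown above. The site 41740 bp upstream of Fstl1, which encodes follistatin-like 1, a secreted glycoprotein of mesenchymal cells, had 24.3 and 21.4, with its summits on the same base. An intron of AI481877 (21.5 and 24.2), an intergenic site on chromosome 9 at 91901152 (18.5 and 26.5) and an intron of Acacb, the gene of the mitochondrial acetyl-CoA carboxylase (21.0 and 22.1), followed. The last of the 8 was in Rn7s1, a gene of the 7SL RNA of the signal recognition particle, with 21.7 and 18.8. Its 50-base window occurs at 2 places in the reference, so that the position is uncertain.

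The 3 shared sites that ranked higher for SOX4 than for RELA by the most lay 14376 bp upstream of Gm34785 (percentiles 47.9 and 8.83), 19750 bp upstream of Irf2bp2, a corepressor gene (37.2 and 3.86), and in an intron of Syne1, which encodes a nuclear envelope spectrin-repeat protein (52.9 and 21.1). Those that ranked higher for RELA by the most lay in an intron of Bach2, a transcriptional repressor of lymphocytes (5.99 for SOX4 and 69.4 for RELA), 803 bp upstream of Gm45063 (10.9 and 73.0), and on chromosome X at 119741767 outside genes (23.2 and 83.0). The former were not soft-masked, that is, not marked as repeats in the reference, and the latter all were.

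Of the genes the study names, Kat6b, Setbp1 and Ncoa1, which encode a histone acetyltransferase, a SET-binding protein and a steroid receptor coactivator, had shared intron sites. At Ncoa1 the rank percentile was 42.7 for SOX4 and 89.8 for RELA, and at Kat6b it was 37.2 and 9.70. At Setbp1 it was 67.4 and 79.1.

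SOX4 only sites were few and low in their list, with 1 exception. The strongest, at chr1:150465557-150465709, lay 3 bp from a transcription start of Prg4, the gene of lubricin, the joint lubricant that marks lining fibroblasts. The 30 bases around its summit are printed because no other SOX4 only peak came near it in enrichment, with the summit base in capitals:

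chr1:150465587-150465616, plus strand, SOX4 only, Prg4: aacgcccttgcttgAgataaaataaaaaca

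Its fold enrichment of 19.02 was rank 9 of the 192 SOX4 peaks and its width was 153 bp, the widest of the SOX4 only peaks. The nearest RELA summit was 328146 bp away. The next SOX4 only peaks had 8.46 at a site 30403 bp upstream of the mismatch repair gene Msh6 and 7.93 at each of Limch1, an intergenic site on chromosome 4 at 92460105 and Il15. Il15 encodes the cytokine interleukin 15, and its summit lay in coding sequence, with 104 as the rank. The peaks that completed the first 8 lay 1065 bp upstream of Gm3221 (7.77) and, tied at 7.40, in introns of Pcdh15 and Ccdc61, in a UTR of Tigd3 and 4217 bp upstream of Gm6490. The 50-base windows of the Gm3221 and Gm6490 sites occur at 5 and 2 places in the reference, so that these positions are uncertain.

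Many SOX4 only summits lay in sequence that occurs more than once. The 50-base window around the summit was found at more than 1 place in the reference for 18 of the 40 SOX4 only sites (45.0%, 30.7% to 60.2%), against 9 of the 152 shared sites (5.92%, 3.15% to 10.9%) and 19 of the 250 RELA only sites (7.60%, 4.92% to 11.6%). Without chromosome X from 120 to 130 Mb, an interval chosen after seeing the data, the RELA only share was 2.58% (1.19% to 5.50%) of 233 sites. The median fold enrichment of these 18 was 5.004, against 6.87 at the 22 single-copy SOX4 only sites. The 3 lowest folds, 2.24, 1.63 and 1.58, were all at the start of chromosome 9, at 3004665, 3016862 and 3006391. How reads with several places were counted is not given in the sources used here, and its part in the SOX4 only class was not tested.

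The strongest RELA only peak lay in a UTR of Sox4 itself, at chr13:28950989-28951384, with a fold enrichment of 21.8, rank 8 of 402, and a width of 396 bp, the widest of all. A RELA only peak in a UTR of Sox11, the SoxC relative of Sox4, was also wide at 140 bp but had a fold enrichment of 6.47 and rank 350. Whether the reads of the wide peaks at Sox4, Sox11 and Prg4 came from these loci or from other DNA of the same sequence, such as a construct, was not tested. The others among the first 8 RELA only peaks were narrow, between 59 and 68 bp. They lay outside genes on chromosome 4 at 16605452 (16.7), on chromosome 11 at 89863788 (16.3) and on chromosome 12 at 42535656 (12.8), 18959 bp upstream of AC139553.1 (14.6), and in introns of Fhit, a fragile-site diadenosine hydrolase gene (15.4), of Sgcd, the gene of delta-sarcoglycan (14.1), and of Lmln and Lrrfip2 (12.8 each). The RELA only site of Tcf7l2, which encodes a Wnt-responsive factor, had 8.15 and rank 237.

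In the deposited lists of TNF-treated FLS most RELA only sites had a SOX4 summit, by the same limit of 50 bp. Of the 250 RELA only sites 171 had one (68.4%, 62.4% to 73.8%), and 191 had a RELA summit after TNF (76.4%, 70.8% to 81.2%). Both were present at 151 sites and neither at 39. The 171 sites had a median RELA rank percentile of 42.04 (37.8 to 45.8) in untreated FLS, and the 79 sites without a SOX4 TNF summit one of 21.1 (18.5 to 30.1). Within 50 bp of the untreated RELA summit there was a SOX4 but no RELA summit after TNF at Sox4, and neither at Sox11. The paper reports that RELA binding was lost and SOX4 binding gained after TNF in the UTRs of both genes. A TNF summit more than 50 bp away, as within the 140 bp peak at Sox11, is not counted here. Of the 40 SOX4 only sites 12 (30%, 18.1% to 45.4%) had a SOX4 summit after TNF, 8 a RELA summit after TNF and 28 neither. All 18 SOX4 only sites in multi-copy sequence were among these 28. Prg4 had a SOX4 but no RELA summit after TNF. Of the 152 shared sites 149 had both, and the exceptions were Lpcat1, with neither, and Jph1 and Ube3a, with RELA alone. Peaks with TNF were more numerous in both lists, and the part of that number and of the depth of those libraries in these shares was not tested.

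Shared and RELA only summits were spread over the annotation in nearly the proportions of the reference bases. SOX4 only summits lay more often near a transcription start, in large part at multi-copy sites. Introns held 44.1% of shared sites (36.4% to 52.0%), 37.5% of SOX4 only sites (24.2% to 53.0%) and 42.8% of RELA only sites (36.8% to 49.0%), against 42.4% of the bases of these chromosomes. The 50 kb upstream of a gene, outside gene bodies, held 27.6%, 35% and 28.8%, against 29.1% of the bases. Exons held 5.26%, 10.0% and 4.80%, against 4.95%. Each of these intervals included the share of the reference. With protein-coding genes alone the upstream share of SOX4 only sites was 32.5% (20.1% to 48.0%), against 16.9% of the bases. A transcription start lay within 10 kb of 24 SOX4 only sites (60%, 44.6% to 73.7%), 64 shared sites (42.1%, 34.5% to 50.1%) and 101 RELA only sites (40.4%, 34.5% to 46.6%), against 37.7% of the bases. Most of these 24 SOX4 only sites were in multi-copy sequence, so that their position is uncertain, and the share was not computed for single-copy sites alone. Coding sequence held 3 SOX4 only sites, namely Il15 and 2 multi-copy sites on chromosome 9, but 0 of the 152 shared and 0 of the 250 RELA only sites, which allows up to 2.46% and 1.51%.

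Promoters were a small part of each class. A transcription start lay within 1 kb of 15 shared sites (9.87%, 6.07% to 15.6%), 7 SOX4 only sites (17.5%, 8.75% to 32.0%) and 14 RELA only sites (5.60%, 3.36% to 9.18%), against 6.13% of the bases. Among the 7 SOX4 only sites, those at Gm6820, Gm11168 and Gm10719 were multi-copy. Among shared sites of this kind were Add1, which encodes the cytoskeletal protein adducin (103 bp from a start, 22.2 for SOX4 and 16.3 for RELA), the lipoprotein lipase gene Lpl (4 bp, 7.93 and 10.3) and Ybx3, a cold-shock protein gene (684 bp, 16.4 and 16.3). Among RELA only sites were S100a8, an alarmin gene of myeloid cells (315 bp, 9.86), and Itgax, the integrin gene of CD11c (493 bp, 7.72). These 5 genes were chosen after their values had been seen.

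**Figure D4:**
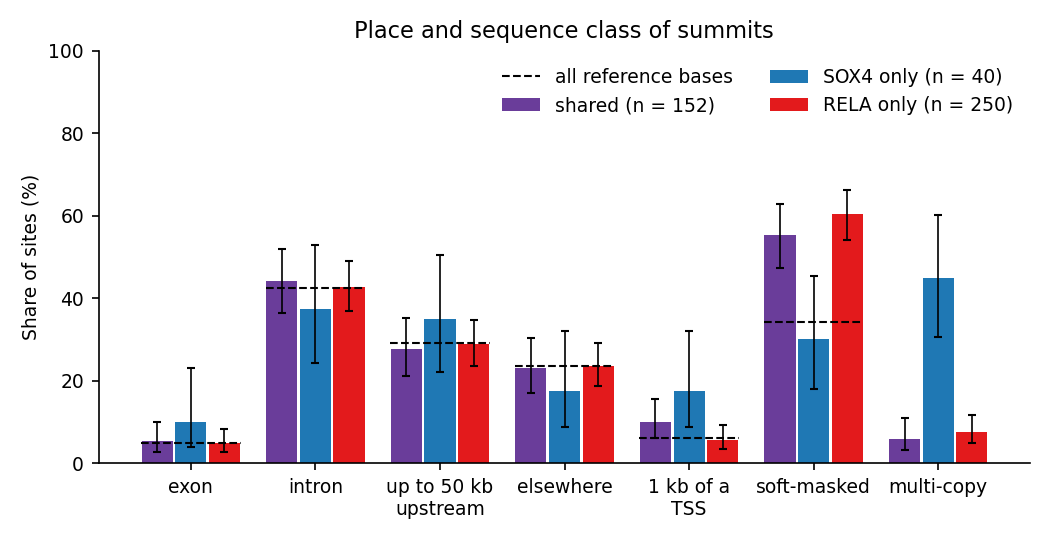
Bars give the share of sites (%, y axis) of each class whose summit lies in each kind of place, on a soft-masked base or in a multi-copy 50-base window (x axis), with Wilson 95% intervals as error bars. Dashed lines give the share of all reference bases, which was not computed for the multi-copy windows, and the soft-masked share of shared and of RELA only sites, 55.3% and 60.4%, lies above its line at 34.3%.

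Repeats held more of the shared and RELA only sites than of the reference. The summit base was soft-masked at 55.3% of shared sites (47.3% to 62.9%), 30% of SOX4 only sites (18.1% to 45.4%) and 60.4% of RELA only sites (54.2% to 66.3%), against 34.3% of the bases. On chromosome X there were 6 shared sites, 1 SOX4 only site and 29 RELA only sites. For RELA only sites this was 17.7 per 100 Mb, against 9.22 on the autosomes, where single chromosomes had 3.27 to 15.5. Of these 29 sites 17 lay between 120 and 130 Mb, and 13 of the 17 were multi-copy.

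Few genes had a site. Of 53843 annotated genes 235 (0.436%) had a shared site in the body or up to 50 kb upstream, 95 (0.176%) a SOX4 only site and 361 (0.670%) a RELA only site. Between them these were 681 genes, or 1.26%. Both a shared and a RELA only site were present at 8 genes, and a SOX4 only and a RELA only site at 2. The overlap expected from the sizes of the classes was not computed. Nemf and Arf6 were among the 8 through summits 224 bp apart on chromosome 12, of which the RELA only one is multi-copy. Sybu and A930017M01Rik were among them through summits 432 bp apart on chromosome 15. No gene lay at 35 of the 152 shared sites, 7 of the 40 SOX4 only sites and 59 of the 250 RELA only sites.

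Genes of the pathways that SOX4, RELA and FLS are known for were among them in single cases. Of 258 genes in 9 lists 14 (5.43%) had a site of any class, against 1.67% of all protein-coding genes. The lists hold genes that the study names from these data, Map3k8 and Junb among them, so that this share is no independent result. None of the 27 NF-κB subunits, inhibitors and kinases had one. Of 30 TNF and IL-1 receptor and adaptor genes Traf2, which encodes a ubiquitin ligase of the TNF receptor complex, had a RELA only site 5168 bp upstream (8.09), and Irak4, a kinase gene of IL-1 receptor signalling, had one 49499 bp upstream (7.39). Of 31 TNF-induced cytokine, chemokine and adhesion genes Il15 alone had a site. Of 31 MAP kinase and AP-1 genes Map3k8, the gene of the kinase TPL2, had a RELA only site 15717 bp upstream (10.7), in an exon of another gene, and Junb one 43951 bp upstream (9.43), which lay in an intron of another gene.

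Of 33 extracellular matrix and protease genes Col6a3, a collagen VI chain gene, had a shared site 18581 bp upstream, with a low SOX4 fold enrichment of 4.17, and Prg4 had its SOX4 only site. The list leaves out other matrix genes, such as Col18a1, with a shared site 14201 bp upstream, and Col4a6, with a RELA only site in an intron. Both were chosen after their values had been seen. Prg4 was also the sole hit among 20 synovial fibroblast genes. Of 36 TGF-beta, BMP and Wnt genes Tgfbr3, a TGF-beta coreceptor gene, had a RELA only site 22277 bp upstream (8.09), besides Tcf7l2. Of 35 chromatin coregulator genes the 3 named above had shared sites. Among 19 SOX genes Sox4 and Sox11 had RELA only sites. No SOX gene had a SOX4 peak in untreated FLS.

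The words that SOX and NF-κB proteins are known to bind were found at few sites of any class. AACAAAG, a core of SOX sites, was found on either strand in the 100 bp windows of 8 shared sites (5.26%, 2.69% to 10.0%), 0 of 40 SOX4 only sites (up to 8.76%) and 12 RELA only sites (4.80%, 2.77% to 8.20%). It was found in 1.58% of windows 2000 bp to either side and in 2.94% of all windows tiled over the chromosomes. AACAATG, another SOX core, was found at 5, 0 and 4 sites. GGNNTTTCC, a loose form of the kB site, was found at 0 shared sites (up to 2.46%), 1 SOX4 only site and 4 RELA only sites (1.6%, 0.624% to 4.04%), against 1.42% of all windows. The AP-1 word TGANTCA was found at 4, 1 and 6 sites, 2.49% of all sites against 2.93% of all windows, and the GC box GGGCGG at none of the 442, against 0.997% of all windows. No match says only that these letters are not in this window.

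The recurring words shown above were chosen from the summit windows. A higher frequency there than in flanking or tiled windows was thus fixed by the choice, and the values below only describe it. ATTCCATTC was found at 19 shared sites (12.5%, 8.15% to 18.7%), 0 SOX4 only sites and 6 RELA only sites (2.40%, 1.10% to 5.14%). It was in 0 of the 884 flanking windows and in 0.126% of all windows. At these 25 sites the word lay a median of 2 bp from the summit, with a median of 7 copies in the window. Of the 25, 14 were in the upstream class, which held 27.6% of all shared and 28.8% of all RELA only sites. TGAACTGAA was found at 2 shared sites (1.32%) and 12 RELA only sites (4.80%, 2.77% to 8.20%), including the one 315 bp from S100a8, against 0.156% of all windows. Tandem ATTCC is best known from satellite DNA of primates. Reads were not analysed here, and whether any came from DNA outside the mouse reference was not tested.

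**Figure D5:**
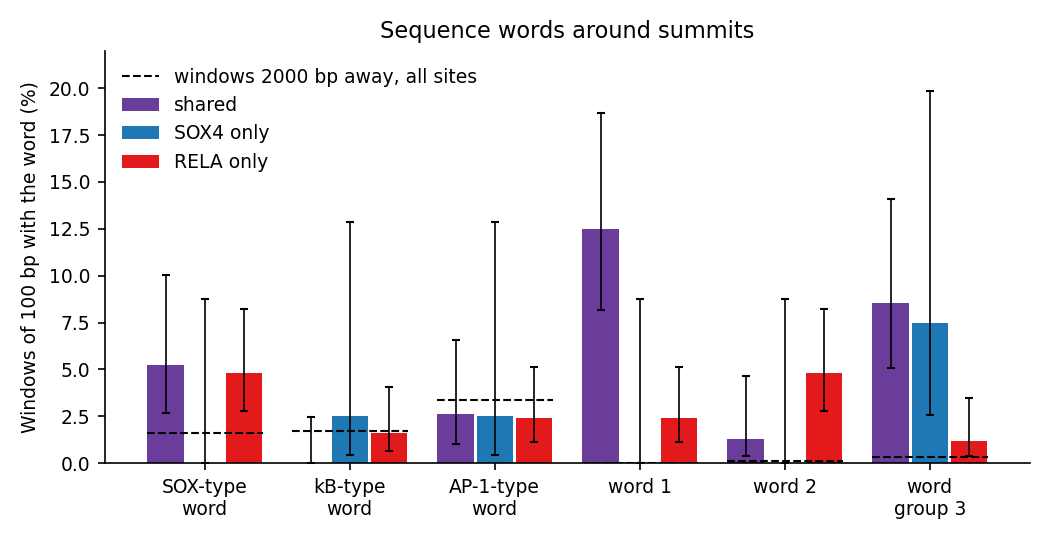
Bars give the share of 100 bp windows (%, y axis) that hold each word on either strand in the 3 classes, with Wilson 95% intervals as error bars and dashed lines for the windows 2000 bp away. From the left the words are the SOX, kB and AP-1 words AACAAAG, GGNNTTTCC and TGANTCA, then ATTCCATTC (word 1), TGAACTGAA (word 2) and any of CATGATCAG, CAGTGCATG and CACTGATCA (group 3), of which word 1 has the highest bar, 12.5% of shared sites.

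At least 1 of the overlapping words CATGATCAG, CAGTGCATG and CACTGATCA was found at 13 shared sites (8.55%, 5.07% to 14.1%), 3 SOX4 only sites (7.50%, 2.58% to 19.9%) and 3 RELA only sites (1.2%, 0.409% to 3.47%). They were in 3 of the 884 flanking windows (0.339%), and the share of all windows was 0.0780%, 0.0905% and 0.0720% for the words in this order. None of the 19 summits was soft-masked, so that among the 68 shared sites outside repeats the share was 19.1% (11.5% to 30.01%). The nearest of these words lay a median of 5 bp from the summit. The 19 sites included Fstl1, Add1, Kat6b, Il15, Tcf7l2 and Col6a3, and 16 of them had a summit in both TNF lists. With or without a word, 149 of 152 shared, 8 of 40 SOX4 only and 151 of 250 RELA only sites had both.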

How the data were processed

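ChIP-seq peak lists of 4 libraries were used, and the input library was not analysed here. Single-end reads of 50 bases had been aligned to mm10 by the authors. Per the file headers, MACS in Strand NGS called the peaks of each pooled library (p-value cutoff 1e-05, fragment length 300). The deposited lists give each peak's −log10 p and −log10 q and its fold enrichment over the background, a ratio. The submitters' processing notes name MACS2. Peaks on chromosomes 1 to 19 and X were used as listed, with coordinates taken as counted from 1. The members, gene lists and words were chosen with earlier results of these data known. Depth is unknown from the lists.

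Genes (GENCODE vM21, GRCm38) were assigned by body or 50 kb upstream. Windows of 50 bases were searched in 66 reference sequences. Words were counted on both strands in windows of 100 bp. Named genes are those at the 8 highest peaks per class, at the 3 largest rank differences in each direction, in the 9 lists, taken from those the study names, or nearest to the 50 bp limit. Others are marked as chosen after their values were seen. Another recurring word was left out and is not reported here. Alternatives changed the distance, threshold, chromosomes, copies, repeats, ranking, annotation and window. The scripts (matplotlib 3.10.9, numba 0.67.0, numpy 2.4.6, scipy 1.17.1, pandas 2.3.3, Python 3.11.15) were tested on simulated data.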

Additional observations from a re-analysis of the deposited data

Results flagged for a closer look

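The RELA list of untreated FLS also held 159 peaks on chromosome Y, which the comparison above leaves out, and the SOX4 list held 0. They were 28.3% of the 561 RELA rows, with a median fold enrichment of 7.30 and a range of 4.31 to 16.3. No control library was analysed, and the difference was not tested. They were singled out because they are signal outside the chromosomes compared.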

How the results depend on the processing

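Of 122 alternative values for the main measures 88 lay inside the 95% interval of the value given above, or within 1.5 times a count given above. The share of SOX4 summits with a RELA summit was 64.1% at 10 bp, 92.4% at a −log10 q of at least 10, 86.7% for single-copy summits and 66.7% outside soft-masked bases. The RELA share was 30.6% at 10 bp and 27.1% with all rows, chromosome Y included. The median rank percentile of SOX4 only peaks was 32.0 at 10 bp. With the upstream region taken before the gene body, introns held 23.0% of shared, 10.0% of SOX4 only and 17.6% of RELA only sites, and upstream regions 52.0%, 70% and 57.2%, against 20.2% and 55.0% of the bases. With a limit of 5 kb upstream regions held 3.95%, 10.0% and 5.60%. With protein-coding genes alone they held 17.8% of shared, 32.5% of SOX4 only and 19.6% of RELA only sites, against 16.9% of the bases, and introns 34.4% of RELA only sites. Genes numbered 98, 27 and 154 with a limit of 5 kb (shared, SOX4 only and RELA only), 138, 43 and 188 when protein-coding, and 152, 39 and 238 by the nearest start. In windows of 200 bp AACAAAG was at 9.20% of RELA only sites. Outside soft-masked bases ATTCCATTC was at 5.88% of shared sites, TGAACTGAA at 0% of shared and 2.02% of RELA only sites, and the overlapping words at 19.1% of shared sites. Leaving out chromosome X from 120 to 130 Mb, chosen after seeing the data, took the multi-copy share of RELA only sites to 2.58%, and it moved none of the overlap shares, rank percentiles, place shares, soft-masked shares and other multi-copy shares beyond these bounds. No paired analysis was possible because there was a single library of pooled DNA for each antibody and treatment, and for the same reason no replicate could be left out. The depth of the libraries limits which weak peaks were called, and it was not analysed here.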
